A study of Gallus gallus with 3 samples.

Results

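Transcript levels in chick (Gallus gallus) somites that had received an antagonist of miR-206 were set against those in somites left without injection. The antagomiR-206 group was 1 library, from somites that had been given an antagomiR directed at miR-206, and the non-injected group was 1 library of somites from the opposite side. A scrambled antagomiR library, also 1, served as the other injected group of the series, and its levels are given beside the pair. All somites came from embryos at Hamburger-Hamilton stages 14 to 16; the labels give no strain, allele, dose or time after injection, and no number of embryos per library. They also do not say which injected embryos the opposite side belonged to. Every transcript that averaged at least 1 CPM over the 3 libraries was taken, which kept 13036 of the 15878 Ensembl chicken transcripts listed. CPM are counts scaled to a common library size by TMM, a method that sets libraries to a common level by their shared bulk of transcripts.

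Somites are paired blocks of mesoderm along the embryonic axis that form skeletal muscle, axial skeleton and dermis. MiR-206 is a microRNA of the skeletal muscle lineage that shares its seed with the miR-1 family and lowers the output of messenger RNAs carrying matching sites. An antagomiR is a chemically modified antisense oligonucleotide that binds a microRNA and keeps it from its targets, so direct targets of a blocked microRNA can rise. The table gives transcript identifiers without gene names or sequences, and 0 of the 15878 could be paired with the gene table used here. Whether somite or muscle markers were present could therefore not be examined, and neither could muscle genes, markers of other tissues or miR-206 sites. Transcripts are described by their counts.

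The antagomiR-206 library held 16496794 counts and the non-injected library 18332350, with 20176114 in the scrambled library. A single count equalled 0.0577 CPM in antagomiR-206 somites and 0.0570 CPM in non-injected ones. In antagomiR-206 somites 671 listed transcripts had no count, against 494 in non-injected somites. A transcript without a count could still have reached 0.173 CPM in antagomiR-206 somites and 0.171 CPM in non-injected ones, the limit set by 3 counts. Differences below are between 1 library and 1 library, with no replicate check and no test. Intervals are exact 95% binomial (Clopper-Pearson) intervals for ratios and Wilson intervals for shares. Intervals for ratios and for shares of counts cover counting error only, since 1 library per group gives no measure of other spread. Intervals for shares of transcripts instead treat transcripts as independent draws, which they need not be. They cover neither counting error nor spread between libraries. Reads copied by PCR are not independent molecules, so the counting error itself may be understated.

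With TMM scaling, more transcripts were far below the non-injected level than far above it. In the antagomiR-206 library 96 transcripts (0.736% of 13036) stood 2-fold or more above the non-injected level and 294 (2.26%) as far below it, 390 or 2.99% in all. Ratios are of CPM + 1, so differences of scarce transcripts are understated. Lower transcripts also outnumbered higher ones at each larger threshold. At 3-fold, 3 were higher and 68 lower, 0.545% of transcripts in all. At 4-fold, 3 were higher and 30 lower (0.253%), and at 8-fold 0 were higher and 11 lower (0.0844%). The excess of lower transcripts was also seen between scrambled and non-injected somites. Of the same 13036 transcripts, 12 were higher and 90 lower there at 2-fold (0.782% in all). At 3-fold 0 were higher and 22 lower, and at 4-fold 0 and 13. Both comparisons use the same non-injected library.

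**Figure D1:**
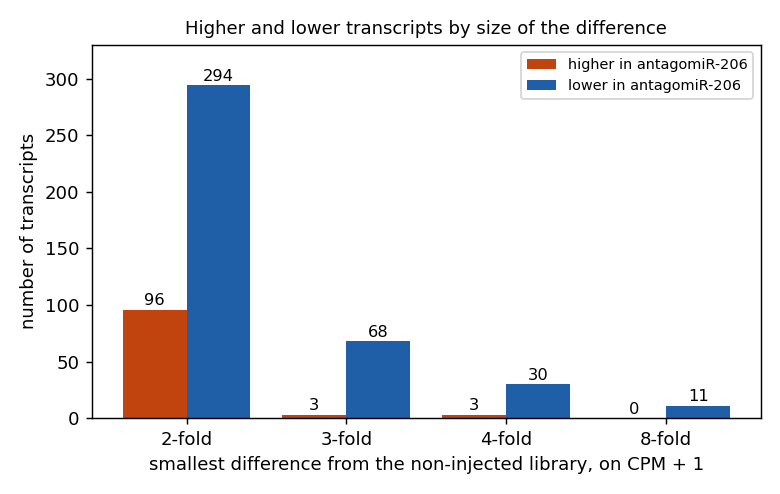
Number of transcripts (vertical axis) at least 2-, 3-, 4- or 8-fold higher (left bars) or lower (right bars) in the antagomiR-206 library than in the non-injected library, on CPM + 1 with TMM scaling, 1 library each. Lower transcripts outnumber higher ones 294 to 96 at 2-fold and 68 to 3 at 3-fold.

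The direction of the 2-fold group depended on how the libraries were scaled. Under scaling by total counts, which moved the median log2 ratio of all transcripts up by 0.12, 397 passed 2-fold, 191 of them lower, so that 51.9% were higher, against 24.6% with TMM. The excess of larger falls was less sensitive: with total counts 6 were higher and 58 lower past 3-fold, and 3 higher and 24 lower past 4-fold. DESeq2 size factors gave 3 higher and 68 lower past 3-fold, and upper quartile scaling 3 higher and 72 lower.

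Smaller differences were more evenly split. At 1.5-fold, 1131 transcripts were higher and 1538 lower, 20.5% of those compared. The quartiles of the log2 ratios were -0.35 and 0.31, with a median of -0.01. The upper tail was the shorter one: the 99th percentile was 0.95 and the 1st percentile -1.23, while the extremes were 2.15 and -5.27. Over transcripts, log2 ratios had an SD of 0.49, where counting error alone would give 0.13.

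Of the 96 higher transcripts, 32 had a counting interval lying wholly beyond 2-fold in plain CPM, and of the 294 lower ones 172 did. For the remaining 186 the reads alone do not place the difference past 2-fold. The counting intervals of 67.7% of all transcripts compared excluded equal levels. What an unchanged pair of libraries would give is not known from 1 library per group. For comparison, 102 transcripts (0.782%) were past 2-fold between scrambled and non-injected somites, and 135 (1.04%) between antagomiR-206 and scrambled somites. These comparisons share libraries with the one described here.

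**Figure D2:**
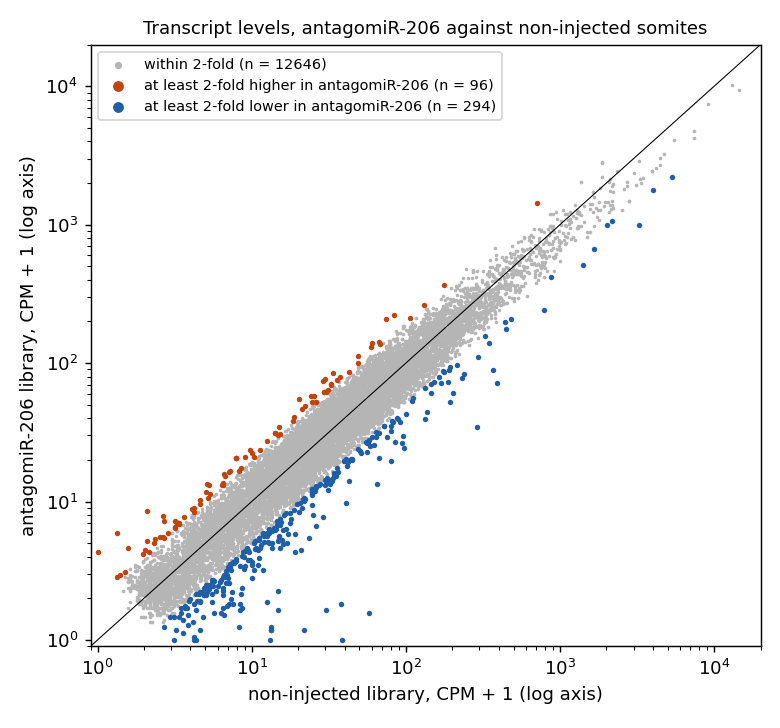
Level of each of 13036 transcripts in the antagomiR-206 library (vertical, CPM + 1, log axis) against the non-injected library (horizontal, CPM + 1, log axis); the line marks equal levels. Most points for the 96 higher transcripts stay close to the main cloud, though their lowest non-injected level is 0 CPM, at the left edge. Some of the 294 lower ones fall to the bottom edge, where the antagomiR-206 level is near 0.

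The 96 higher transcripts had lower median levels than all transcripts compared. The median of the 96 was 19.8 CPM in antagomiR-206 somites and 7.13 CPM in non-injected somites, with 11.5 CPM in the scrambled library. For all transcripts compared it was 27.3, 27.0 and 27.4 CPM in the same order. The quartiles of the 96 were 6.22 and 60.6 CPM in the antagomiR-206 library, against 2.32 and 28.2 CPM in the non-injected library. Together they took 0.586% of all antagomiR-206 counts (0.583 to 0.590) and 0.242% of non-injected counts (0.240 to 0.245). The scrambled share was 0.338%. The 96 were chosen by the ratio of the pair, so the direction of this gap was fixed in advance. In 11 of the 96 the antagomiR-206 level was at least 100 CPM, as it was in 2131 of all transcripts compared. As a share of the 2131, the 11 were below the 0.736% higher over all transcripts compared. These 11 lay between 112 and 1441 CPM there and stood at 47.8 to 708 CPM in the non-injected library. They were 2.02- to 2.82-fold higher in plain CPM. Some of the 96, at most 3 together, had counts within 2% of one another in every library, so the 96 amount to 93 separate patterns of counts.

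Among the 10857 transcripts that averaged at least 5 CPM over the pair, 2 in each direction with the most extreme ratios of CPM + 1 are named. The order in plain CPM can differ. The highest log2 ratio of the 10857 was 1.49, which is below 3-fold. The 3 transcripts past 3-fold higher therefore averaged under 5 CPM over the pair. ENSGALT00000015897 had 3601 counts in the antagomiR-206 library and 1291 in the non-injected library, with 3177 in the scrambled one. That is 207.9 CPM for antagomiR-206, 73.6 CPM for non-injected and 158.2 CPM for scrambled somites. It was thus 2.82-fold higher in antagomiR-206 than in non-injected somites (2.65 to 3.01). Relative to the scrambled library it was 1.31-fold higher (1.25 to 1.38), so both injected libraries lay above the non-injected one.

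ENSGALT00000012655 had 939 counts in antagomiR-206 somites and 338 in non-injected somites, with 829 in the scrambled library. The level was 54.2 CPM with the antagonist, 19.3 CPM without injection and 41.3 CPM with the scrambled oligonucleotide. Antagonist-treated somites stood 2.81-fold above non-injected ones (2.48 to 3.19) and 1.31-fold above scrambled ones (1.19 to 1.44). As for the transcript before, most of its distance from the non-injected level was also present in the scrambled library. The next 10 transcripts in rank were 2.56- to 2.996-fold higher in plain CPM. They lay at 12.2 to 223 CPM in antagomiR-206 somites and 4.16 to 82.4 CPM in non-injected ones, and formed 8 separate patterns of counts.

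The 294 lower transcripts had a wide range of levels. Their median was 4.56 CPM in antagomiR-206 somites and 13.9 CPM in non-injected somites, with 8.04 CPM in the scrambled library. In the antagomiR-206 library 156 of them were under 5 CPM, against 52 in the non-injected library. Among all transcripts compared, 2288 and 2140 were under 5 CPM in the same order. The 294 took 1.41% of antagomiR-206 counts (1.400 to 1.411) and 3.22% of non-injected counts (3.211 to 3.227). Their scrambled share was 1.996%. The 294 were chosen by the ratio of the pair, so the direction of these gaps between the pair was fixed in advance. Fewer cells of a type and less RNA per cell cannot be told apart in such bulk libraries. Near-identical counts were rare here, with 293 separate patterns among the 294.

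ENSGALT00000019056 was not detected in the antagomiR-206 library, with 0 counts, and had 660 counts, or 37.6 CPM, in the non-injected library. By its counting interval it was at least 176-fold lower in antagomiR-206 somites. The scrambled library held 1 count of it. Both injected libraries were therefore at the bottom of the scale, and the transcript was seen at depth in the non-injected side alone.

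ENSGALT00000024434 had 10 counts in the antagomiR-206 library and 999 in the non-injected library, which is 0.577 CPM against 57.0 CPM. It was 98.7-fold lower in antagomiR-206 somites (53.4 to 206.4). Its scrambled level was 19.3 CPM, from 387 counts. Here the scrambled library was neither at the antagomiR-206 level nor at the non-injected level. The next 10 lower transcripts in rank had 0 to 33.7 CPM in antagomiR-206 somites and 11.5 to 288 CPM in non-injected ones, with log2 ratios of -4.39 to -2.75.

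The lower group also held abundant transcripts. Of the 108 transcripts compared that reached 1000 CPM in the non-injected library, 7 were among the 294. These 7 had 508 to 2206 CPM in antagomiR-206 somites, against 1418 to 5367 CPM in non-injected somites. In the scrambled library they had 805 to 2773 CPM. They were 2.04- to 3.26-fold lower in antagomiR-206 somites, with counting intervals between 2.005 and 3.31. These 7 made up 0.863% of antagomiR-206 counts and 1.91% of non-injected counts. Of the 2147 transcripts compared that reached 100 CPM in the non-injected library, 38 were among the 294. That is a smaller share than the 2.26% lower over all transcripts compared, while 7 of 108 is a larger one. The median of these 38 was 87.1 CPM in antagomiR-206 somites and 234.4 CPM in non-injected somites. Both cuts used the non-injected level, which is part of the ratio, and such cuts favour lower transcripts.

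Transcripts close to absent from one side of the pair were mostly absent from the antagomiR-206 side. Of all 15878 transcripts listed, 16 had at most 3 counts in the antagomiR-206 library and at least 30 in the non-injected library. The reverse held for 2. Of the 16, 7 had no count in antagomiR-206 somites. The non-injected counts of all 16 ran from 33 to 660, with a median of 56.5. In the scrambled library 4 of the 16 also had at most 3 counts, 3 had at least 30, and the other 9 lay in between. The 2 transcripts near 0 in the non-injected library had 58 and 30 counts in antagomiR-206 somites, against 0 and 3 in non-injected somites, and 16 and 12 in the scrambled library. A pair among the 16 had identical counts in every library and may share reads. The limits are in raw counts, to which no scaling was applied. The antagomiR-206 library held fewer counts in total, 16496794 against 18332350, which makes a value near 0 slightly easier to reach there. With TMM scaling a single count stood for nearly the same level, 0.0577 CPM against 0.0570 CPM.

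**Figure D3:**
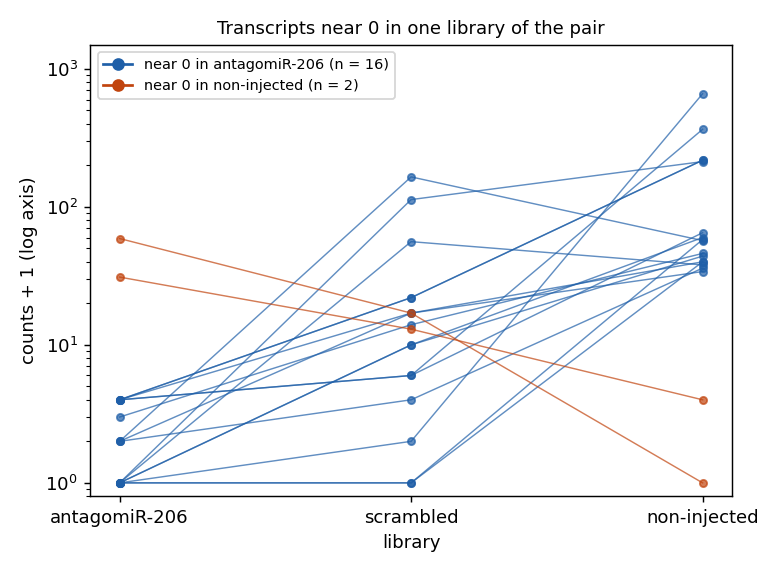
Counts + 1 (log axis, libraries side by side) of the 18 transcripts with at most 3 counts in one library of the pair and at least 30 in the other; each line is a transcript. The 16 near 0 in antagomiR-206 have 0 to 164 counts in the scrambled library and 33 to 660 in the non-injected library.

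Spread and direction were then followed across transcript levels, with transcripts split into 10 groups of equal size by their level in the scrambled library, which is not part of the ratio. The share past 2-fold was highest among transcripts scarce in the scrambled library. In the lowest group, up to 2.69 CPM, it was 5.52% (4.41 to 6.90), and in the next, up to 6.03 CPM, 6.75% (5.51 to 8.24). In the 6 highest groups, from 18.3 CPM up, it lay between 1.38% and 2.07%. A transcript near 0 CPM in the scrambled library passed the filter only through its level in the pair. This favours large ratios in the lowest group, whose members need not be scarce in the pair. Log2 ratios had an SD of 0.59 in the lowest group and 0.42 in the highest. Counting error alone, with reads taken as independent, would give 0.23 in the lowest group and 0.03 in the highest. Most of the spread among abundant transcripts was beyond that.

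**Figure D4:**
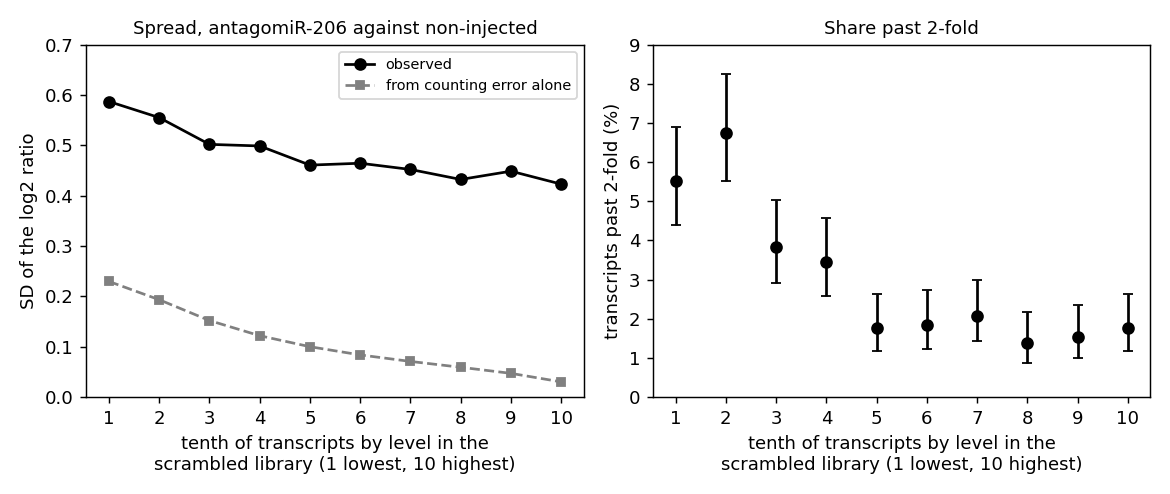
Left, SD of the log2 ratio of antagomiR-206 over non-injected CPM + 1 in 10 equal groups of transcripts by scrambled level, observed and from counting error alone. Right, percent of each group past 2-fold with 95% Wilson intervals, which treat transcripts as independent draws. The observed SD stays at or above 0.42 while the counting part falls to 0.03.

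Abundant transcripts tended to lie below the non-injected level. Of the 100 most abundant transcripts of the scrambled library, each above 987 CPM there, 16 were higher in antagomiR-206 somites than in non-injected ones and 84 lower, with a median log2 ratio of -0.42. The range was -1.70 to 0.58, with 0 past 2-fold on the high side and 5 on the low side. With scaling by total counts the median was -0.28 and 27 were higher, so the tendency remained while its size changed. For the same 100 the median log2 ratio was -0.12 for scrambled over non-injected and -0.27 for antagomiR-206 over scrambled. In the group of highest level the median ratio of antagomiR-206 to non-injected was -0.11, and in the 9 other groups it lay between -0.08 and 0.07.

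The last feature examined was one the choice of transcripts did not use, the number in the Ensembl identifier, which runs from 3 to 46243 here. The ratios of antagomiR-206 to non-injected somites varied with it. In blocks of 5000 numbers the median log2 ratio was -0.14 for numbers under 5000 and -0.03 for the next block. It was 0.02 between 10000 and 14999, and 0.14, 0.13 and 0.16 in the 3 blocks between 15000 and 29999. It was -0.002 both between 30000 and 34999 and between 35000 and 39999. It was -0.25 between 40000 and 44999 and -0.21 from 45000 on. The highest and lowest block differed by 0.40, beside an SD of 0.49 over all transcripts.

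The transcripts past 2-fold followed this course only in part. Over all transcripts compared, 0.736% were higher and 2.26% lower, and some blocks lay near these shares. Of 1658 transcripts numbered under 5000, 3 stood 2-fold or more above the non-injected level (0.181%) and 35 as far below it (2.11%). Among the 3 blocks with a median above 0.1, 16 of 1640 were higher (0.976%) and 39 lower (2.38%) between 15000 and 19999. Between 20000 and 24999, 14 of 1502 were higher (0.932%) and 10 lower (0.666%). Between 25000 and 29999, 14 of 1148 were higher (1.22%) and 20 lower (1.74%). From 40000 to 44999, 9 of 1573 were higher and 60 lower, or 0.572% and 3.81%. The last block, with a median of -0.21, had the highest share of higher transcripts (10 of 674, or 1.48%) beside 23 lower (3.41%). The median level in the scrambled library was 34.5 CPM in the first block and 20.4 CPM in the last. Its fall was not steady, with 21.1 CPM between 30000 and 34999 and 24.7 CPM between 35000 and 39999. With transcripts averaging at least 20 CPM only, the highest and lowest block differed by 0.45. Scaling by total counts moved all block medians up together and left that difference, over all transcripts, at 0.40.

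The other pairs of libraries had block medians of their own. The block at 40000 to 44999 had medians of -0.11 for antagomiR-206 over scrambled and -0.11 for scrambled over non-injected. The block at 25000 to 29999 had 0.08 for antagomiR-206 over scrambled and 0.07 for scrambled over non-injected. These pairs share libraries, so their values are set side by side only. Transcripts at neighbouring identifier numbers had weakly correlated ratios, at r = 0.11 over 12988 neighbours after identical counts were removed. The correlation was r = 0.09 at 10 places apart and r = 0.06 at 100. Neighbours may be isoforms of a gene or share a library's biases. What the numbers track, such as the position or the base composition of the transcripts, was not tested.

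**Figure D5:**
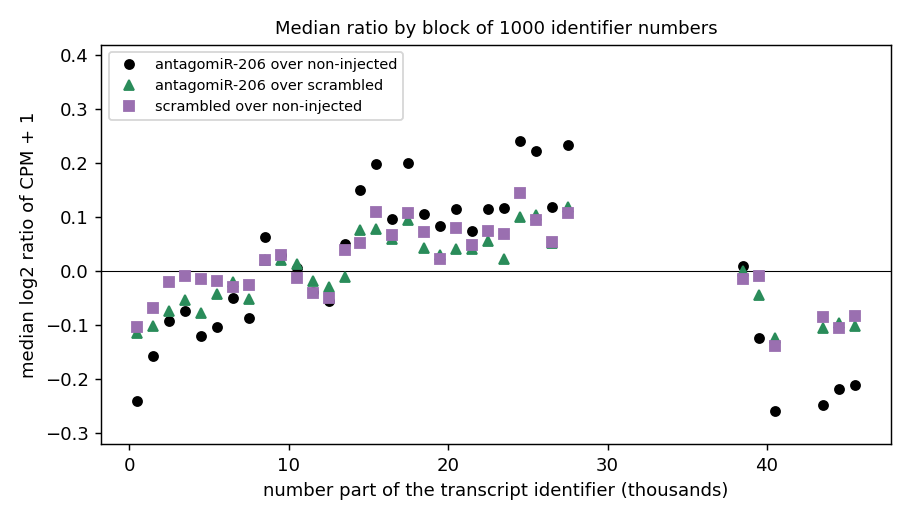
Median log2 ratio of CPM + 1 (vertical) in blocks of 1000 identifier numbers (horizontal, in units of 1000) holding at least 200 transcripts, for each pair of the 3 libraries. AntagomiR-206 over non-injected runs from -0.26 to 0.24, and the pairs with the scrambled library vary over a smaller range.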

How the data were processed

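The deposited table holds whole-number counts per Ensembl transcript for 3 libraries. Per the labels' protocols, Trizol RNA went into unbarcoded Illumina mRNA-seq libraries, sequenced from both ends at 50 nt on 1 Genome Analyzer lane apiece. The sources used here do not give the aligner, counting, build, strand use or filters. Columns were matched to samples by the letters of their headers, which abbreviate the sample titles.

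Scaling used edgeR 4.0.16 (TMM) in R 4.3.3, with factors between 0.957 (non-injected) and 1.05 (antagomiR-206); other scalings used DESeq2 1.42.0, upper quartiles and totals. Transcripts averaging 1 CPM over the 3 libraries were compared as log2(CPM + 1) in antagomiR-206 minus non-injected, past 2-fold. The 2 highest and 2 lowest ratios among those averaging 5 CPM over the pair are named. The counting of calls was tested on simulated data. Intervals used scipy 1.17.1. The 18 gene lists prepared could not be applied. The transcripts compared, lists and thresholds were chosen with earlier results of these data known; grouping of near-identical counts and the block widths were chosen after seeing the data.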

Additional observations from a re-analysis of the deposited data

How the results depend on the processing

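Of 44 recomputed counts, SDs and block differences, 27 stayed near the reported value (within 1.5 times, or 0.01 for the SD) and 17 did not. The 390 transcripts past 2-fold became 695 with a pseudocount of 0.1 CPM, 128 with 5 CPM and 71 past 3-fold, and the 294 lower ones 492, 103 and 68. The higher ones, 0.736% of transcripts compared, became 1.56%, 0.192% and 0.0230%; larger pseudocounts and thresholds lower these by construction. Scaling by total counts gave 1.58% higher and 191 lower. The SD of 0.49 was 0.46 with no filter, 0.48 with a mean of at least 5 CPM, 0.57 with a pseudocount of 0.1 CPM and 0.38 with 5 CPM. The 18 transcripts near 0 became 53 with a limit of 10 counts (42 in antagomiR-206 and 11 in non-injected) and 5 when the other library needed 100 (all 5 in antagomiR-206). DESeq2 size factors, upper quartile scaling and counting identical or near-identical transcripts once moved none of the 2-fold counts by over 1.5 times. Of 28 recomputed ratios of the 4 named transcripts, 23 stayed within counting error and 5 did not. Of these 5, 4 were the lower pair under other pseudocounts. The 23 include every ratio recomputed under a changed filter, which picks transcripts without altering their levels and so could not move it. Among the 28, 0 changed sign, which no pseudocount or filter could bring about. No paired analysis was possible because a group was a single library, which also leaves no replicate to omit. How depth limits the calls was not tested, and the spread between libraries of a group is unknown.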

Other observations

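In finer blocks of 1000 identifier numbers, 34 held at least 200 transcripts. Their median log2 ratios of antagomiR-206 to non-injected somites formed stretches of like sign, which were picked out after the values were seen. The 16 such blocks between 13000 and 39000 all had a median above 0, from 0.01 to 0.24. No block between 27999 and 38000 held 200 transcripts, so this stretch is not continuous. The blocks of 5000 at 30000 to 34999 and 35000 to 39999 both had a median of -0.002. The 8 below 8000 and the 5 from 39000 on all had a median below 0, down to -0.24 in the first stretch and -0.26 in the last. The last stretch has a gap between 40999 and 43000. Scaling by total counts adds about 0.12 to each median and so moves the line between higher and lower, but left the difference between blocks of 5000 within 1.5 times. The cause was not tested.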
